A study of Stylophora pistillata with 18 samples.

Results

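The 7 gene models described here are the mitochondrial genes for subunits of NADH dehydrogenase, or respiratory complex I, in the reef-building stony coral Stylophora pistillata. They were chosen by their place on the mitochondrial scaffold of the deposited annotation and by their coding length, which gave the names ND5, ND1, ND2, ND6, ND4, ND4L and ND3, and they are 7 of 29419 models in all. The annotation itself carried no gene names, so each name rests on position and length alone. All 7 passed the filter on low counts and were tested with 21375 models.

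Complex I takes electrons from NADH, passes them to ubiquinone and pumps protons across the inner mitochondrial membrane. The subunits encoded in the mitochondrial genome form the core of its membrane arm. ND2, ND4 and ND5 are the antiporter-like subunits of the arm, and ND1 holds much of the ubiquinone site. ND3, ND4L and ND6 lie toward the base of the arm. The other subunits are encoded in the nucleus. In stony corals the ND5 gene is split by a group I intron that contains many of the other mitochondrial genes.

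Specimens of 2 adult wild-type colonies were kept for 18 h in plain seawater or with a dissolved compound, either 3'3'-cUA (cUA) or 2'3'-cGAMP (cGAMP), each at 250 µM. Both compounds are cyclic dinucleotides: 2'3'-cGAMP is the messenger that animal cGAS makes on sensing DNA in the cytosol and that activates STING, and 3'3'-cUA is a product of bacterial enzymes of the same superfamily. Each treatment had 6 libraries, 3 per colony, named here by treatment, colony number and specimen letter. The RNA came from whole specimens, so fewer cells of a type and less RNA per cell cannot be told apart. Nothing in the labels says how the specimens of a colony were separated, so the p-values below reflect only the scatter among these samples, which may be partly technical.

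Total counts ran from 22175801 to 41800393 per library, of which the 7 models took 960 to 3936 counts. Levels are given as CPM, counts scaled to a common library size, by the TMM method, which corrects for a few abundant transcripts taking up a library. The TMM factors were lowest in cUA 2A at 0.619, seawater 1A at 0.714, cUA 2C at 0.862 and cGAMP 1A at 0.886, and reached 1.23 in the other libraries. In those 4 libraries the 50 most abundant models took 24.4%, 22.7%, 22.7% and 22.3% of the counts.

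The 7 models lie on the plus strand of scaffold NC_011162.1, with coordinates as the deposited annotation states them. ND5 (Spis_YP_002149701_1) spans 2008 to 14429 in 2 coding segments of 1839 bases together, and its intron of 10583 bases contains the other 6 complex I models and 10 of the 13 coding models of the scaffold. Within the intron, ND1 (Spis_YP_002149702_1) lies at 2843 to 3820, ND2 (Spis_YP_002149704_1) at 5232 to 6323 and ND6 (Spis_YP_002149705_1) at 6325 to 6888. ND4 (Spis_YP_002149707_1) follows at 8671 to 10116, ND4L (Spis_YP_002149710_1) at 12604 to 12903 and ND3 (Spis_YP_002149711_1) at 12903 to 13247. ND2 and ND6 are 1 base apart, ND4L and ND3 share 1 base, and the second segment of ND5 begins 54 bases after ND3. ND4L also shares 19 bases with the unnamed coding model before it. How the authors' counting treated reads across such boundaries is not given in the sources used here.

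Transcripts of the 7 models stood at unequal levels in seawater when compared per kilobase of coding sequence. The highest mean was that of ND3, at 14.7 ± 5.37 CPM per kilobase (SD, n = 6). ND4 stood at 10.6 ± 2.97, ND4L at 8.65 ± 3.12, ND5 at 7.02 ± 2.40 and ND1 at 7.0 ± 1.22 CPM per kilobase. From ND3 down to ND1 the ranges of neighbours in this order overlapped. ND2 at 2.99 ± 0.689 and ND6 at 0.483 ± 0.252 CPM per kilobase stood apart, with ND1 above ND2 and ND2 above ND6 in 18 of 18 libraries. The lowest-ranked model, ND6, had only 4 to 49 counts in a library, so its values carry the largest counting error. The place of ND5 depends on its length: over its whole span, intron included, it stood at 1.04 CPM per kilobase.

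**Figure D1:**
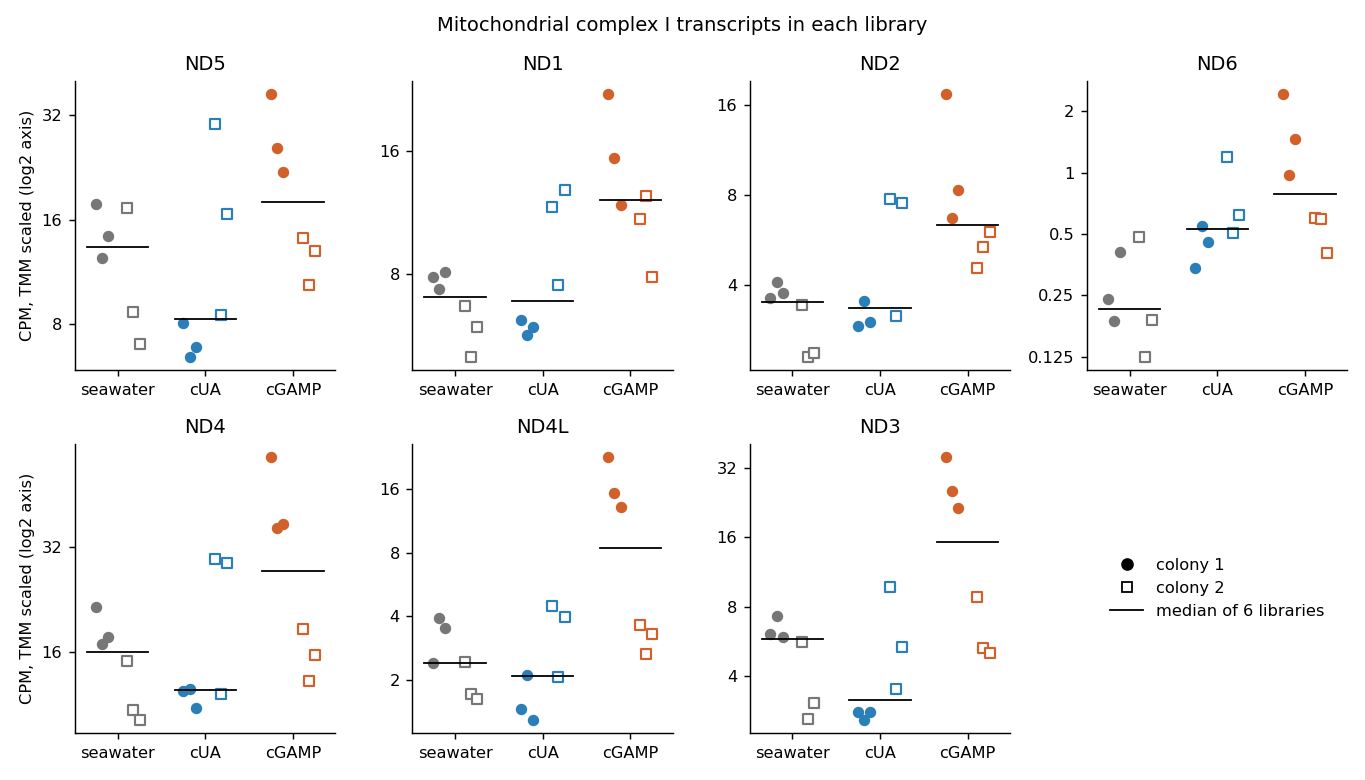
Level of each complex I model in every library, as TMM-scaled CPM on a log2 axis with its own range in each panel, by treatment; filled circles are colony 1, open squares colony 2, and the line is the median of 6 libraries. In each panel the 3 cGAMP libraries of colony 1 lie above the 3 seawater libraries of the same colony, while those of colony 2 lie closer to the seawater range. The share of all tested models separating in this way within colony 1 was not computed.

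After cGAMP, 5 of the 7 transcripts rose and none fell. None was called when libraries were scaled to their mitochondrial counts, which include the 7 models themselves. ND6, ND4L, ND3, ND2 and ND1 were higher than in seawater by 0.97 to 1.89 on the log2 scale, and ND4 and ND5 did not pass the test. The background was 9.22% of the tested models called higher and 12.3% called lower. The median log2 fold change was 1.28 over the 7 models and -0.07 over all tested models. The test was edgeR's quasi-likelihood test with colony as a term and Benjamini-Hochberg adjustment over the 21375 models.

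ND4L and ND3, short neighbouring models whose subunits lie toward the base of the membrane arm, varied most over the libraries. ND4L stood at 2.39, 3.91 and 3.50 CPM in seawater in colony 1 and at 22.8, 15.4 and 13.2 CPM after cGAMP in that colony. In colony 2 it stood at 2.43, 1.71 and 1.61 CPM in seawater and at 3.65, 2.66 and 3.30 CPM after cGAMP. The 3 cGAMP libraries of each colony lay above the 3 seawater libraries of the same colony, but those of colony 2 overlapped seawater of colony 1. The share of all tested models separating within each colony was not computed. Over both colonies ND4L rose by 1.80 ± 0.49 (SE) on the log2 scale, 3.48-fold (edgeR, adjusted p = 0.0136).

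ND3 stood at 6.06, 7.27 and 5.92 CPM in seawater in colony 1 and at 35.7, 25.4 and 21.5 CPM after cGAMP. In colony 2 the values were 5.63, 2.59 and 3.04 CPM in seawater and 8.83, 5.27 and 5.02 CPM after cGAMP. The colony 2 groups of ND3 overlapped, through seawater 2A. ND3 rose by 1.62 ± 0.48 on the log2 scale, 3.08-fold (edgeR, adjusted p = 0.0206). Its call rested on cGAMP 1A, the library with the highest ND3 level: without it the log2 fold change was 1.34 (edgeR, adjusted p = 0.0536).

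ND6, also toward the base of the arm, had the largest fold change and the lowest level. Its counts in seawater were 6, 7 and 21 in colony 1 and 15, 4 and 6 in colony 2. After cGAMP they were 49, 23 and 34 in colony 1 and 16, 13 and 10 in colony 2. In CPM, 5 of the 6 cGAMP libraries lay above the highest seawater library. ND6 rose by 1.89 ± 0.48 on the log2 scale, 3.70-fold (edgeR, adjusted p = 0.00911).

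ND1, the subunit at the ubiquinone site, ran from 5.02 to 8.12 CPM in seawater with a median of 7.04, and from 7.88 to 22.1 CPM after cGAMP with a median of 12.1. Only cGAMP 2C lay within the seawater range. ND1 rose by 0.97 ± 0.27 on the log2 scale, 1.95-fold (edgeR, adjusted p = 0.0156). In each colony the 3 cGAMP libraries lay above the 3 seawater libraries, a separation whose share over all tested models was not computed.

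Among the antiporter-like subunits, ND2 was called and ND4 and ND5 were not. ND2 ran from 2.31 to 4.10 CPM in seawater with a median of 3.53, and from 4.59 to 17.3 CPM after cGAMP with a median of 6.37. It was the only one of the 7 with all 6 cGAMP libraries above all 6 seawater libraries, a separation found in 5.56% of the tested models. ND2 rose by 1.28 ± 0.36 on the log2 scale, 2.43-fold (edgeR, adjusted p = 0.0152). Without cGAMP 1A its adjusted p was 0.0503, so that 3 of the 7 models were called without that library, beside 8.14% of all models called higher.

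ND4 ran from 10.2 to 21.5 CPM in seawater with a median of 15.9 and from 13.2 to 58.0 CPM after cGAMP with a median of 27.4. Its log2 fold change was 0.91 ± 0.36 (edgeR, adjusted p = 0.0816), and without cGAMP 2B it was 1.06 (adjusted p = 0.0465). ND5, at the far end of the arm, ran from 7.03 to 17.8 CPM in seawater with a median of 13.4 and from 10.4 to 36.7 CPM after cGAMP with a median of 18.0. Its log2 fold change was 0.64 ± 0.41 (edgeR, adjusted p = 0.287). For both, the 3 cGAMP libraries above the seawater range were those of colony 1.

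**Figure D2:**
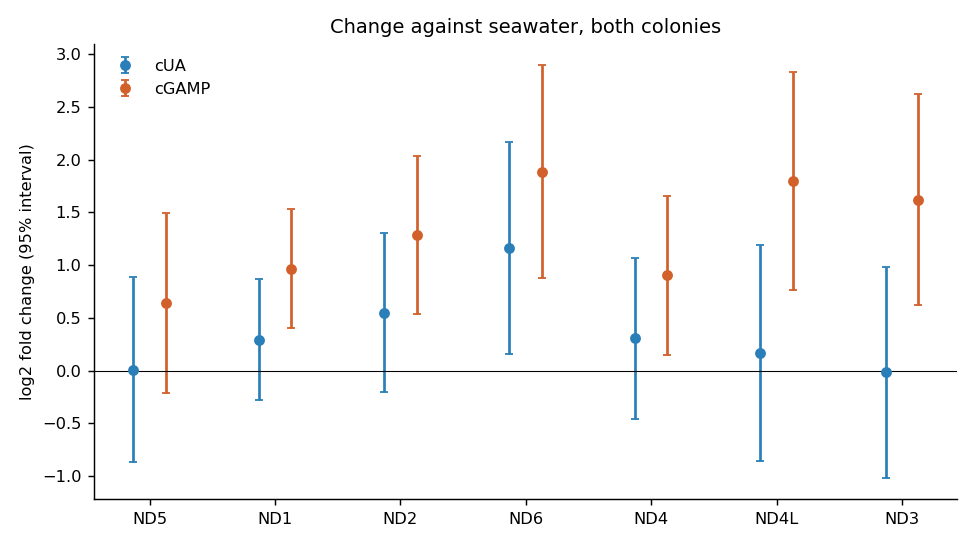
Log2 fold change of each model against seawater over both colonies, with the 95% interval of the edgeR fit under TMM scaling, for cUA (blue) and cGAMP (orange). The cGAMP estimates run from 0.64 in ND5 to 1.89 in ND6, and the interval of ND5 includes 0; the cUA estimates run from -0.02 in ND3 to 1.16 in ND6. The 2 comparisons share the seawater libraries.

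The size of the cGAMP values differed between colonies, though not past the test. In a fit with separate effects per colony, the 7 log2 fold changes after cGAMP ran from 0.92 in ND5 to 2.50 in ND6 in colony 1, with ND4L at 2.39 and ND3 at 2.10. In colony 2 they ran from 0.19 in ND5 to 0.99 in ND6. Fitted alone, colony 1 had 6 of the 7 called higher, all but ND5, against a background of 5.73%, and colony 2 had 0, against a background of 2.60%. The difference between colonies was -1.65 ± 0.50 in ND4L and -1.34 ± 0.54 in ND3 (colony 2 minus colony 1). It was called in 0 of the 7 by edgeR and 0 by DESeq2, with a background of 0% of all models by edgeR. An unadjusted p below 0.05 was found in 2 of the 7 and in 1119 of all 21375 models.

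The complex I models also took a larger part of the mitochondrial counts in 1 group of libraries. They held 29.3% to 36.8% of the counts of the 13 mitochondrial coding models in seawater and 32.9% to 37.2% after cUA. After cGAMP they held 46.2% to 48.1% in colony 1 and 31.2% to 38.0% in colony 2. The colony 1 cGAMP libraries were thus above all 15 others.

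ND4L and ND3 stood out in the make-up of these counts. Together they were 30.0% to 32.4% of the complex I counts in the 3 cGAMP libraries of colony 1 and 12.3% to 21.5% in the other 15 libraries. The ratio of ND3 to ND4L counts stayed between 1.23 and 2.53 in all 18 libraries. The share of ND5 was 18.8% to 20.5% in the cGAMP libraries of colony 1 and 19.3% to 33.9% in the others.

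**Figure D3:**
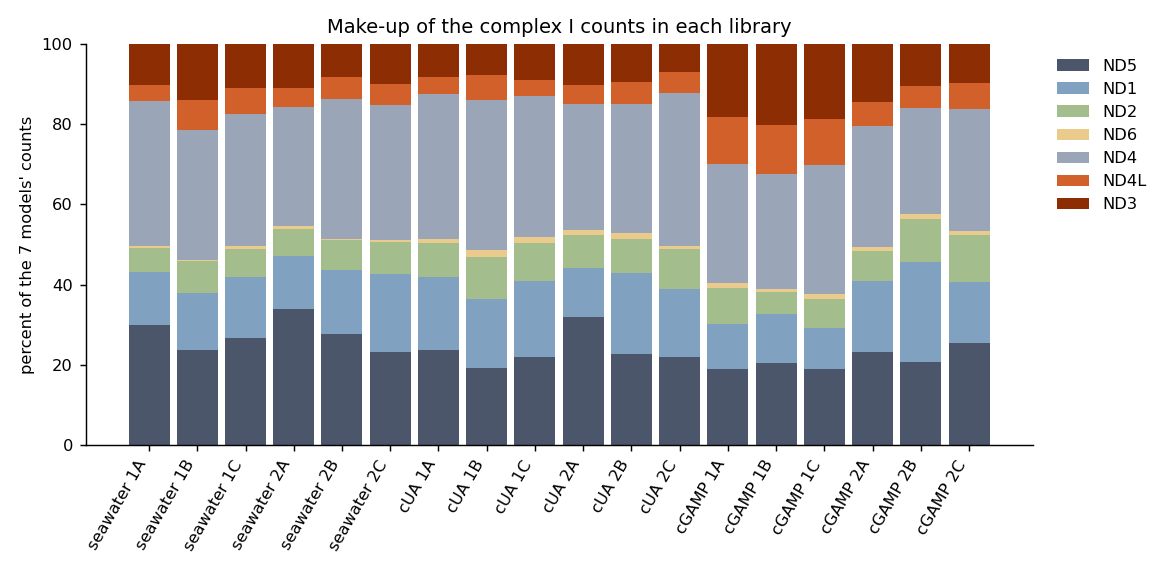
Share of each model in the summed counts of the 7 complex I models, in percent, for each of the 18 libraries. The orange and brown parts, ND4L and ND3, reach 30.0% to 32.4% together in the 3 cGAMP libraries of colony 1 and stay at 12.3% to 21.5% elsewhere.

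Of the other 6 coding models of the scaffold, 5 were tested and 1 was called higher after cGAMP. That model, Spis_YP_002149709_1, is the one that overlaps ND4L, and it rose by 1.63 ± 0.37 on the log2 scale (edgeR, adjusted p = 0.00443). Just past the threshold were Spis_YP_002149703_1 at 1.12 and Spis_YP_002149706_1 at 1.04 (edgeR, adjusted p = 0.056 and 0.052), above the 0.97 of ND1. Spis_YP_002149708_1 at 0.63 and Spis_YP_002149713_1 at 0.45 were farther from it (0.41 and 0.29). The 5 tested models had a median log2 fold change of 1.04, with a range from 0.45 to 1.63. When libraries were scaled to the summed counts of the 13 mitochondrial models, 0 of the 7 were called after cGAMP by edgeR. The 13 include the 7 themselves, so that scaling removes any change the mitochondrial models share and cannot test it. ND6 was then at 1.07 (adjusted p = 0.0874), ND4L at 0.92 (0.0761), ND3 at 0.79 (0.102) and ND5 at -0.12 (0.763). That scaling moved the median log2 fold change of all tested models from -0.07 to -0.74, with 2.66% called higher and 23.0% lower. With total counts as the only scaling, 5 of the 7 were called, beside 6.39% of all models called higher and 13.5% lower, and the median of all models was -0.24.

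After cUA, none of the 7 transcripts was called in either direction over both colonies by edgeR. The background was 5.91% of tested models called higher and 4.29% called lower. DESeq2 and limma-voom without sample weights also called 0. At an unadjusted p below 0.05 the edgeR fit had 1 of the 7, ND6, beside 4983 of all 21375 models. ND6 ran from 0.339 to 1.198 CPM after cUA with a median of 0.528, against 0.125 to 0.486 CPM in seawater with a median of 0.215. Its log2 fold change was 1.16 ± 0.48 (edgeR, adjusted p = 0.141), with 4 of 6 cUA libraries above the seawater range. The other 6 log2 fold changes ran from -0.02 in ND3 to 0.55 in ND2. Those of ND5 and ND4L, at 0.01 and 0.17, turned to -0.22 and -0.09 with total counts as the only scaling.

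The log2 fold changes after cUA had opposite signs in the 2 colonies in 6 of the 7 models under TMM scaling, all but ND6. On the TMM scale the 3 cUA libraries of colony 1 lay below the 3 seawater libraries in those 6 complex I models. In colony 2 they lay above them in ND1 and ND6 and overlapped them in the other 5 complex I models. The share of all tested models separating in these ways was not computed. Without TMM scaling, seawater 1A lay below all 3 cUA libraries of colony 1 in ND1 (5.636 CPM) and ND2 (2.59 CPM). In ND4L, at 1.708 CPM, it lay below cUA 1A at 1.716 CPM and cUA 1B at 2.445 CPM. ND5, ND4 and ND3 stayed separated in colony 1. With TMM scaling, ND4L in colony 1 was at 1.45, 2.10 and 1.29 CPM after cUA, all below the 3 seawater libraries of that colony. In colony 2 it was at 4.46, 2.05 and 3.96 CPM after cUA, and cUA 2A and cUA 2C were above all 3 seawater libraries. The log2 fold change of ND4L was -1.02 in colony 1 (95% interval -1.78 to -0.26) and 0.86 in colony 2 (0.10 to 1.62).

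ND3 was at 2.77, 2.58 and 2.78 CPM after cUA in colony 1, below the seawater libraries there, and at 9.75, 3.50 and 5.35 CPM in colony 2. In colony 2 only cUA 2A lay above all 3 seawater libraries, and cUA 2B and cUA 2C lay below seawater 2A at 5.63 CPM. Its log2 fold change was -1.24 in colony 1 (95% interval -2.07 to -0.42) and 0.72 in colony 2 (-0.10 to 1.54). In colony 1 fitted alone, ND3 was the 1 model of the 7 called lower (edgeR, adjusted p = 0.0267), against a background of 2.19%.

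Over all 7 models, the colony 1 log2 fold change after cUA was below 0 in 6, from -0.28 in ND2 to -1.24 in ND3, and 0.67 in ND6. In colony 2 all 7 were above 0, from 0.72 in ND3 to 1.51 in ND6. The difference between colonies ran from 0.84 ± 0.79 in ND6 to 1.96 ± 0.55 in ND3. In the 5 other tested mitochondrial models it ran from 0.75 to 2.31. It was called in 0 of the 7 by edgeR, with a smallest adjusted p of 0.339 and a background of 0%. An unadjusted p below 0.05 was found in 6 of the 7 and in 2571 of all 21375 models. DESeq2 called 3 of the 7 (0.847% of all models higher), limma-voom called 0 without sample weights and 1 with them (1.2%), and edgeR called 1 without cUA 2B (0.206%).

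In colony 2, the cUA libraries with the highest summed levels had the lowest TMM factors. Summed over the 7 models, cUA 2A, 2B and 2C stood at 94.5, 37.4 and 75.6 CPM, with TMM factors of 0.619, 1.12 and 0.862. The seawater libraries of colony 2 stood at 50.9, 31.3 and 30.4 CPM. Without TMM scaling the 3 cUA sums were 58.5, 41.7 and 65.1 CPM against 53.0, 34.9 and 35.4 CPM in seawater, and cUA 2A and 2C were above all 3 seawater libraries of the colony on either scale. With total counts as the only scaling, the colony difference of the cUA values ran from 0.28 in ND6 to 1.34 in ND4L and ND3, with the median of all models at -0.43 in place of 0.06. With scaling to the mitochondrial counts it ran from -0.70 in ND6 to 0.30 in ND3, below 0 in 4 of the 7, with the median of all models at -1.45. Without cUA 2A and cUA 2C, an alternative chosen after the values were seen, ND5 was at -0.90 and ND3 at -0.92 over both colonies (edgeR, adjusted p = 0.0751 and 0.166). The part of library composition in these values was not tested.

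**Figure D4:**
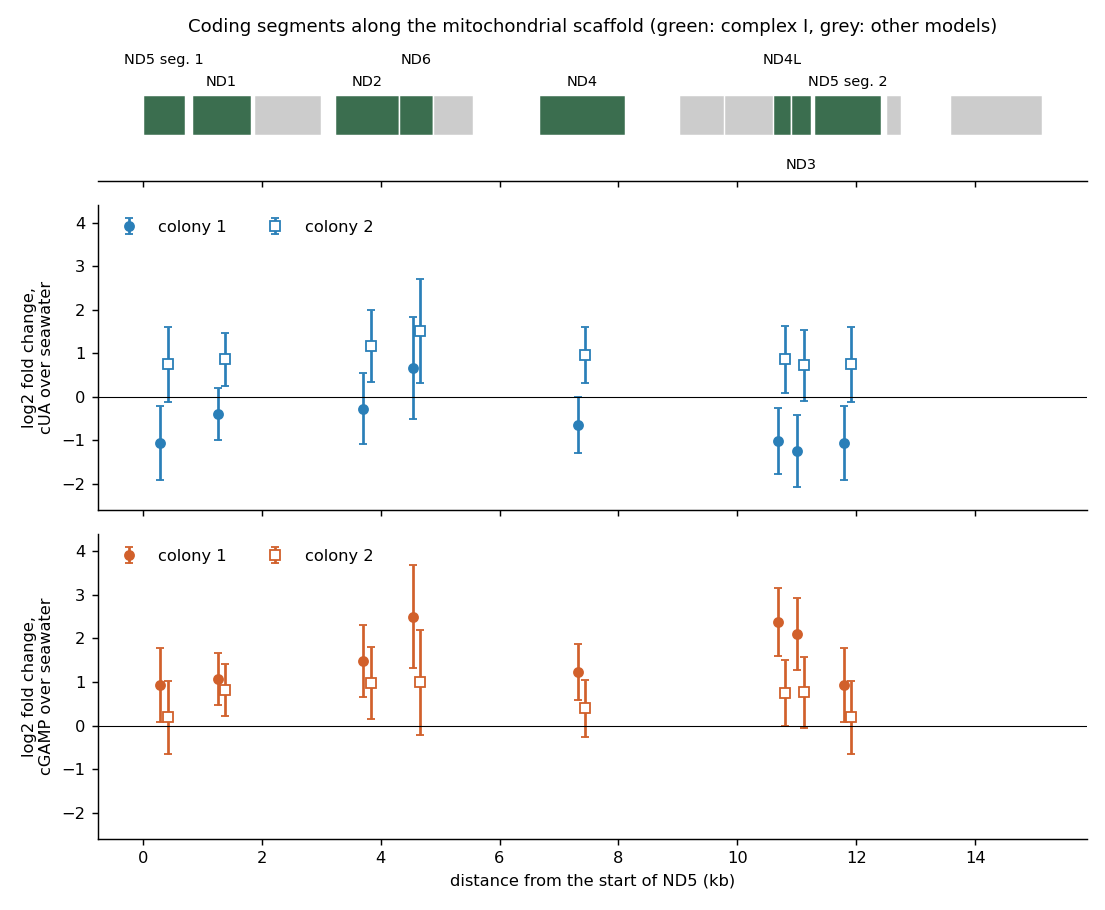
Top, coding segments of the mitochondrial scaffold (green, complex I; grey, other models) against distance from the start of ND5 in kb. Below, log2 fold change of each complex I model at its position, with 95% intervals, after cUA (blue) and cGAMP (orange) in colony 1 (filled) and colony 2 (open); the single ND5 value is drawn at both of its segments. After cUA, 6 of 7 colony 1 values lie below 0 and all colony 2 values above it, and after cGAMP the neighbours ND4L and ND3 reach 2.39 and 2.10 in colony 1.

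The 2 compounds were given at the same dose and time, and they differ in a base, uracil in cUA and guanine in cGAMP, and in a phosphodiester linkage. In the direct comparison of this 1 pair of compounds, the estimate of cUA minus cGAMP was below 0 in all 7 models, from -0.60 in ND4 to -1.64 in ND3 on the log2 scale, and 0 were called by edgeR. With scaling to the mitochondrial counts, ND1, ND6 and ND4 turned to 0.04 at most, while ND4L stood at -0.98 and ND3 at -1.03. The background was 0% of all tested models, and 1830 models had an unadjusted p below 0.05. Unadjusted p-values were below 0.05 in ND1, ND4L and ND3, and the smallest adjusted p of the 7 was 0.379. Over all tested models the smallest was 0.132 (edgeR), the value of the mitochondrial model Spis_YP_002149709_1, at a log2 difference of -2.24. DESeq2 and limma-voom without sample weights also called 0. With sample weights limma-voom called 7 of the 7 lower after cUA than after cGAMP, beside 6.07% of all models. Without cUA 2A and cUA 2C edgeR called 6 of the 7 lower, beside 0.32% of all models, and without seawater 1A and cUA 2A it called 1, beside 1.44%. The 95% interval of cUA minus cGAMP, not adjusted over models, was -2.71 to -0.57 in ND3, -2.74 to -0.53 in ND4L and -1.25 to -0.10 in ND1. It was -1.54 to 0.27 in ND5, and the intervals of ND2, ND6 and ND4 also included 0. No difference passed the adjustment over all models in the main fit, and similar action was not shown either.

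Within colony 1 the estimate of cUA minus cGAMP was below 0 in all 7 models. The 95% intervals below are not adjusted over models, and the share of all tested models with such intervals was not computed. The log2 difference of cUA from cGAMP there was -3.40 in ND4L (95% interval -4.22 to -2.59) and -3.34 in ND3 (-4.23 to -2.46), and from -1.47 to -1.98 in the other 5. In colony 1 fitted alone, ND4L and ND3 were the only models called in this comparison among 20860 tested, or 0.00959% (edgeR, adjusted p = 0.0456 and 0.00899). The other tested mitochondrial models were also below 0 in colony 1, in the fit with both colonies. Spis_YP_002149709_1, which overlaps ND4L, stood at -3.045 (95% interval -4.08 to -2.01) and Spis_YP_002149708_1 at -2.72. The remaining ones ran from -1.36 to -2.11. In colony 2 the 7 differences lay between -0.05 and 0.57, and each 95% interval included 0.

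The colony difference of the compound contrast was tested after these values were seen. It ran from 1.51 ± 0.40 in ND1 to 3.52 ± 0.51 in ND4L on the log2 scale (colony 2 minus colony 1). By edgeR 0 of the 7 were called, with a background of 0%. An unadjusted p below 0.05 was found in 7 of the 7 and in 3110 of all 21375 models. ND4L ranked 1 and ND3 ranked 2 of the 21375 models by p, with adjusted p-values of 0.0851 and 0.0978. DESeq2 and limma-voom with sample weights each called 6 of the 7, with 2.10% and 5.23% of all models called in that direction. Without weights limma-voom called 0, and edgeR called 6 without cUA 2B, with 1.29% of all models. Scaled to the mitochondrial counts, which include the 7 models, ND4L at 1.53 and ND3 at 1.27 were called (edgeR, adjusted p = 0.0280 and 0.0487). That scaling put the median of all models at -1.74, with 0.0327% called higher and 47.5% called lower. The low share called higher goes with that shift, so it does not show these calls to be rare.

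**Figure D5:**
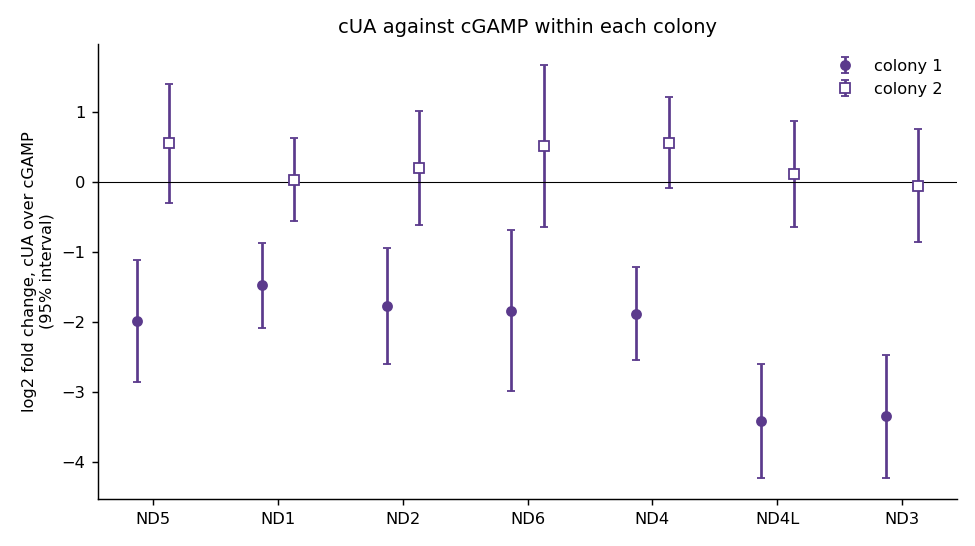
Log2 difference of cUA from cGAMP in each model with the 95% interval of the fit, in colony 1 (filled circles) and colony 2 (open squares). All 7 colony 1 intervals lie below 0, lowest in ND4L at -3.40 and ND3 at -3.34, and all 7 colony 2 intervals include 0. The intervals are not adjusted over models, and the share of all tested models with such intervals was not computed.

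The 7 profiles over the 18 libraries were not the same. Likeness was measured as the root mean square difference between centred log2 CPM values. ND5 and ND4 were the closest pair at 0.275, followed by ND4L and ND3 at 0.276, and ND6 and ND3 were the farthest at 0.716. ND4 was closest to the mean profile of the 7, at 0.204, and the low-count ND6 farthest, at 0.453. The spread over libraries was widest in ND4L and ND3, with SDs of 1.16 and 1.14 on the log2 scale, and narrowest in ND1 at 0.574.

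Outside the mitochondrial scaffold, 17188 models with a mean of at least 1 CPM were ranked by the same measure against the mean profile. The closest was Spis_XP_022804929_1, which has no symbol, at 0.307, and it stood at 17.5 ± 5.58 CPM in seawater, 24.3 ± 6.77 after cUA and 47.8 ± 28.9 after cGAMP (SD, n = 6). Next came Spis_XP_022794357_1, also without a symbol, at 0.391, LOC111337113 at 0.398 and LOC111340560 at 0.400. The median over the candidates was 0.981. These values share libraries and depth with the complex I models and are a description only.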

How the data were processed

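From 18 libraries, RNA enriched on oligo(dT) beads was sequenced after a directional preparation, per the labels' protocols. The deposited values are raw counts per gene model. The authors' tools, per the submitters' processing notes, include STAR, featureCounts and DESeq2. Versions, settings, strand mode and genome build were not given in the sources used here.

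Counts were tested with edgeR 4.0.16 in R 4.3.3 (filterByExpr, TMM, robust quasi-likelihood, colony plus treatment, 14 residual degrees of freedom, or with their interaction, 12), called at an adjusted p below 0.05. The common coefficient of variation was 0.464. DESeq2 1.42.0, limma-voom (limma 3.58.1), other scalings, filters and sets of libraries were alternatives. The test script was checked on simulated data. Log2 CPM used a prior count of 2. All 7 models and the 4 models outside the scaffold most like them were named by rule, and the members and lists were chosen with earlier results of these data known. The compound contrast between colonies and the fits without cUA 2A and 2C were added after the values were seen. The reference gene table listed 0 symbols of nuclear complex I genes among 51516, so these are not analysed here. No library pair differed by sampling noise alone, with a lowest chi-square per degree of freedom of 17 within a group. Depth limits each value through its own count, from 4 to 1171 reads per model and library.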

Additional observations from a re-analysis of the deposited data

Results flagged for a closer look

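Of 30 groups of 6 libraries examined for a library standing apart by Dixon's criterion, 2 had one; chance flags about 1 in 20 groups. ND2 stood at 17.34 CPM in cGAMP 1A, where the next highest cGAMP library was at 8.32 and the lowest at 4.59 CPM. ND6 stood at 1.198 CPM in cUA 2A, where the next was at 0.621 and the lowest at 0.339 CPM, on 22 counts.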

How the results depend on the processing

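Of the 5 models called higher after cGAMP, 0 were called with scaling to mitochondrial counts, which include the 7 models, and 0 in colony 2 alone. Leaving out 1 library gave 3 to 6, with 3 without cGAMP 1A. The stricter filter, at least 1 CPM in 6 libraries, left ND6 untested and gave 4. After cUA, limma-voom with sample weights called 3 lower (12.8% of all models higher and 16.1% lower), with ND5 reversed to -0.71 (adjusted p = 0.0491) and ND4L to -1.07 (0.0294), and colony 1 alone gave 1; leaving out 1 library gave 0. For cUA against cGAMP, called in 0, sample weights gave 7 lower (6.07% of all models), colony 1 alone 2 (0.00959%), without seawater 1A and cUA 2A 1 (1.44%), and without cUA 2A and cUA 2C 6 (0.32%). The colony difference of the cUA effect went from 0 to 3 with DESeq2 (0.847% of all models higher), to 1 with sample weights (1.2%), and to 0 to 1 on leaving out 1 library. That of cUA against cGAMP went from 0 to 2 with mitochondrial scaling (0.0327% of all models higher and 47.5% lower). It went to 6 with DESeq2 (2.10%), 6 with sample weights (5.23%), and 0 to 6 on leaving out 1 library, with 6 without cUA 2B. The colony difference of the cGAMP effect was 0 in every alternative run. The cause was not tested. For the cGAMP comparison, 87 of 104 single values kept direction and call, 10 lost the call, 6 gained it and 1, not called, changed sign; for cUA against seawater 28 of 104 uncalled values changed sign.

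The replicate block of colony and specimen letter gave 5 models called after cGAMP, 0 after cUA and 0 for cUA against cGAMP, and changed no call count. Same-numbered specimens correlated from -0.447 to 0.381, above 0.1 in 6 of 18 pairs, and 7 of 18 libraries correlated best with their own number, so the numbers were not taken as pairs. At 4 to 49 counts, small differences in ND6 were not detectable at this depth.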
